A study of Mus musculus with 4 samples.

Results

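The genes described here are 10 interferon-induced factors that act against viruses at entry, replication or release and lie outside the IFIT, OAS, GBP and IRG families. They were taken by gene symbol: Mx1, Mx2, Rsad2, Cmpk2, Bst2, Ifitm2, Ifitm3, Rtp4, Ifi44 and Isg20. All 10 were found among the 55401 genes of the expression table, and all 10 passed the filter on low counts. RNA was sequenced from mouse bone marrow-derived macrophages, grown with M-CSF and then kept beside MC38 colon carcinoma cells, also of mouse, for 24 h. There were 2 knockout libraries, KO1 and KO3, from C57BL/6 mice with floxed Mettl3 and the LysM-cre driver. There were 2 control libraries, WT1 and WT3, from C57BL/6 mice with floxed Mettl3 and no driver named. The mice were 8 weeks old, and every library came from a co-culture, so none shows macrophages alone. Mettl3 encodes the catalytic subunit of the enzyme that writes N6-methyladenosine on mRNA, and LysM-cre acts in myeloid cells, so other cells in a culture would keep the gene. The comparison asks how libraries labelled as Mettl3 knockout differ from control libraries.

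Interferons released by a cell bind receptors that signal through the JAK kinases to transcription factors in the nucleus. These bind short promoter motifs, among them the interferon-stimulated response element (ISRE) and the gamma-activated sequence (GAS). The genes switched on this way include restriction factors, proteins that block a step of the viral life cycle inside the cell. Macrophages are known to express many of them at a low level without infection and to raise them when interferon is present.

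Total counts ranged from 55100415 to 79209870 a library, with KO3 the deepest. The libraries differed between numbers as well as between genotypes. Xist stood at 0.624 CPM (counts scaled to a common library size) in KO1, 1162 in KO3, 0.589 in WT1 and 1351 in WT3, and the Y-linked Ddx3y had the opposite pattern, so number and the sex of the cells coincide. Mettl3 stood at 13.9 and 19.6 CPM in KO1 and KO3, against 18.3 and 23.2 CPM in WT1 and WT3, and the groups overlapped. Exons outside a deletion are still counted, so this does not check the labels. Macrophage markers were abundant, with 7 genes that summed to 40424 and 42325 CPM in KO1 and KO3, against 38069 and 53970 CPM in WT1 and WT3. Most of that sum was Lyz2, at 25451 and 25785 CPM in KO1 and KO3, against 22069 and 40813 CPM in WT1 and WT3. Lyz2 and Cd68 were highest in WT3, while Csf1r, Itgam, Fcgr1 and Mertk were lowest there and Adgre1 was neither. Of 5 epithelial markers, Epcam, Krt8 and Krt18 had a count of 0 in all 4 libraries. The 5 summed to 1.33 and 0.910 CPM in KO1 and KO3, against 0.387 and 0.953 CPM in WT1 and WT3, most of it from Krt19. Fibroblast markers (5 genes) summed to 225 and 431 CPM in KO1 and KO3, against 294 and 692 CPM in WT1 and WT3, and their part in the results below was not tested. In such bulk samples, fewer cells of a type and less RNA per cell cannot be told apart.

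The promoters of 5 of the genes are shown first, because these genes cover the range of responses: Rsad2 and Cmpk2 stood higher in the knockouts, Bst2 overlapped, Ifitm3 went both ways and Ifitm2 stood lower. Each window runs from 250 bases before to 50 bases after the RefSeq start in GRCm38.p6, and 7 of the 10 genes matched an entry (Mx1, Mx2 and Rtp4 have none). The windows are chr12:26456403-26456702 (minus strand) for Rsad2, chr12:26468965-26469264 (plus strand) for Cmpk2, chr8:71537423-71537722 (minus strand) for Bst2, chr7:140955912-140956211 (minus strand) for Ifitm2 and chr7:141010695-141010994 (minus strand) for Ifitm3. Capitals mark the ISRE core, GAAA and GAAA with any 2 bases between, on either strand.
Rsad2: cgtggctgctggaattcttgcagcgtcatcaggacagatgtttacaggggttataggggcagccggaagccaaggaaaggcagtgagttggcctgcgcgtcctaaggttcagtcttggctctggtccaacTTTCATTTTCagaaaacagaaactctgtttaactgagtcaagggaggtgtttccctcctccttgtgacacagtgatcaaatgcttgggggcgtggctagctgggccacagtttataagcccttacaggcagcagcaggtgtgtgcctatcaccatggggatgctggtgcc
Cmpk2: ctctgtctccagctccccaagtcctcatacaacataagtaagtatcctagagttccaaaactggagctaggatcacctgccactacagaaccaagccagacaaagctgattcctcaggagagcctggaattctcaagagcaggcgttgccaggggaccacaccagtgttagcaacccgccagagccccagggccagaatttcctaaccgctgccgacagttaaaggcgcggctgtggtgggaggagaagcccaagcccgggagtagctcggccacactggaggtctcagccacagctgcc
Bst2: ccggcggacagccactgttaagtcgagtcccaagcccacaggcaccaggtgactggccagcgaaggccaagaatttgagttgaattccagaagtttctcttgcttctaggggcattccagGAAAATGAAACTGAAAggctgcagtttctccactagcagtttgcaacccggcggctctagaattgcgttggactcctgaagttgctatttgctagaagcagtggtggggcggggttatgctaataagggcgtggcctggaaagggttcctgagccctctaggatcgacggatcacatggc
Ifitm2: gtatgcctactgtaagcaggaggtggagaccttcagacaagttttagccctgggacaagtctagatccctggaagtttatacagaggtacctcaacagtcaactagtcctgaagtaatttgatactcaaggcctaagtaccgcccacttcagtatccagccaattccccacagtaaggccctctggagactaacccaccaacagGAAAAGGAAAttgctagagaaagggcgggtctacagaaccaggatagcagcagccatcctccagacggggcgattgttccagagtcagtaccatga
Ifitm3: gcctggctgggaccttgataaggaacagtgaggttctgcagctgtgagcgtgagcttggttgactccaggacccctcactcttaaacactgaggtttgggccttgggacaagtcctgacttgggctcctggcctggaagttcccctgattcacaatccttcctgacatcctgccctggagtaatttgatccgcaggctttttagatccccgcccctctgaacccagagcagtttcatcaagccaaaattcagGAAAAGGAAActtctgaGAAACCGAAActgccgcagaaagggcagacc

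The ISRE core was found in 4 of the 9 promoter entries of these genes (Isg20 has 3 entries), against 3.44% of all 32851 entries. Rsad2 had 1 match, on the reverse strand, which begins 120 bases before the start. Bst2 had 2 overlapping matches, GAAAATGAAA and GAAACTGAAA, which begin 130 and 124 bases before the start. The same 10 bases, GAAAAGGAAA, occurred in Ifitm2, 46 bases before the start, and in Ifitm3, from base 3 after it. A second match in Ifitm3, GAAACCGAAA, begins at base 20. The GAS core TTCNNNGAA, which reads the same on both strands, was found in Bst2, Ifitm3 and the first entry of Isg20, against 8.30% of all entries, and in Bst2 and Ifitm3 it overlaps an ISRE core. Only exact matches of each core were sought, so a variant of either motif would be missed. By that search, Cmpk2 and Ifi44 had neither motif in this window. Of the 7 genes with an entry, 4 had both knockouts above both controls (Rsad2, Cmpk2, Ifi44 and Isg20). Only Rsad2 of these 4 held an exact ISRE core, while Bst2, Ifitm2 and Ifitm3, the other 3, all held one.

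**Figure D1:**
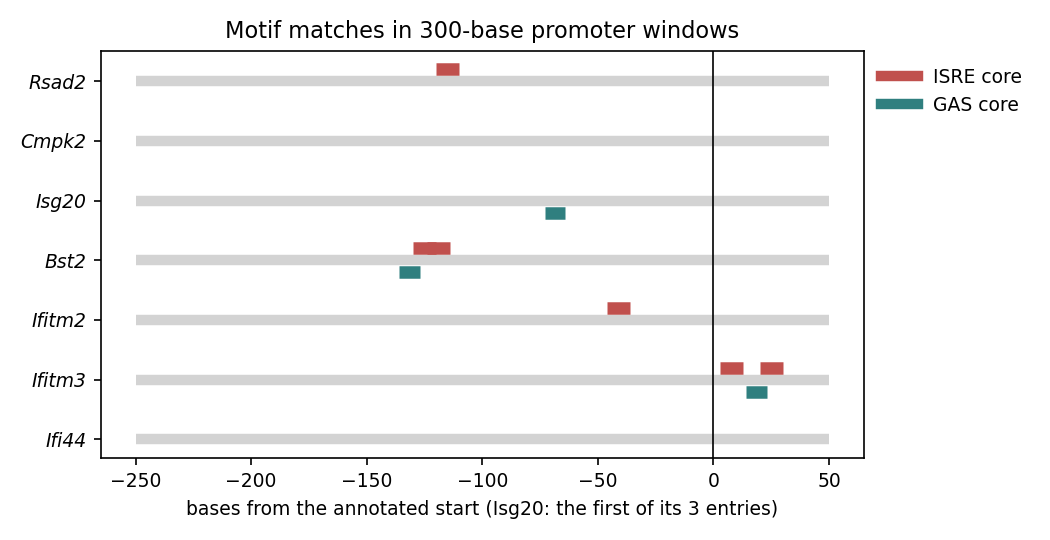
Position of the ISRE core (red, above each bar) and the GAS core (teal, below) in the promoter windows of 7 genes, in bases from the annotated start. Rsad2, Bst2 and Ifitm2 carry an ISRE core before the start, and Ifitm3 carries 2 after it.

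By edgeR's quasi-likelihood test over all 17260 genes tested, 0 of the 10 restriction factors passed an adjusted p of 0.05, and 0% of all genes did; each of the 10 had an adjusted p of 1.00. Unless said otherwise, every SE given for a genotype difference is from this fit, with 2 libraries per genotype and no term for library number. Differences between library numbers, with their SE, are from an edgeR fit that also held genotype. At an unadjusted p under 0.05, 6 of the 10 were higher in the knockouts (Mx1, Mx2, Rsad2, Cmpk2, Rtp4 and Ifi44), against 1.30% of all genes tested, and 0 were lower, against 0.962%. In 7 of the 10, those 6 and Isg20, each knockout exceeded each control, against 13.1% of all genes. For 1, Ifitm2, both lay below both controls, against 13.4% of all genes. The median log2 fold change of the 10 was 1.21, beside 0.00 for all genes tested. Within library number 1 the median difference was 0.86 and within number 3 it was 1.38. The knockout stood above the control in both numbers for 8 of the 10, against 25.8% of all genes, and below it in both for 1, against 27.2%. DESeq2, run as another test of the same counts, called 4 of the 10 higher (Mx1, Rsad2, Cmpk2 and Rtp4), against 0.236% of the 17776 genes with an adjusted p. With library number as a block, a pairing that no label states, DESeq2 called 6 of the 10 higher, against 106 of all 17260 genes tested.

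**Figure D2:**
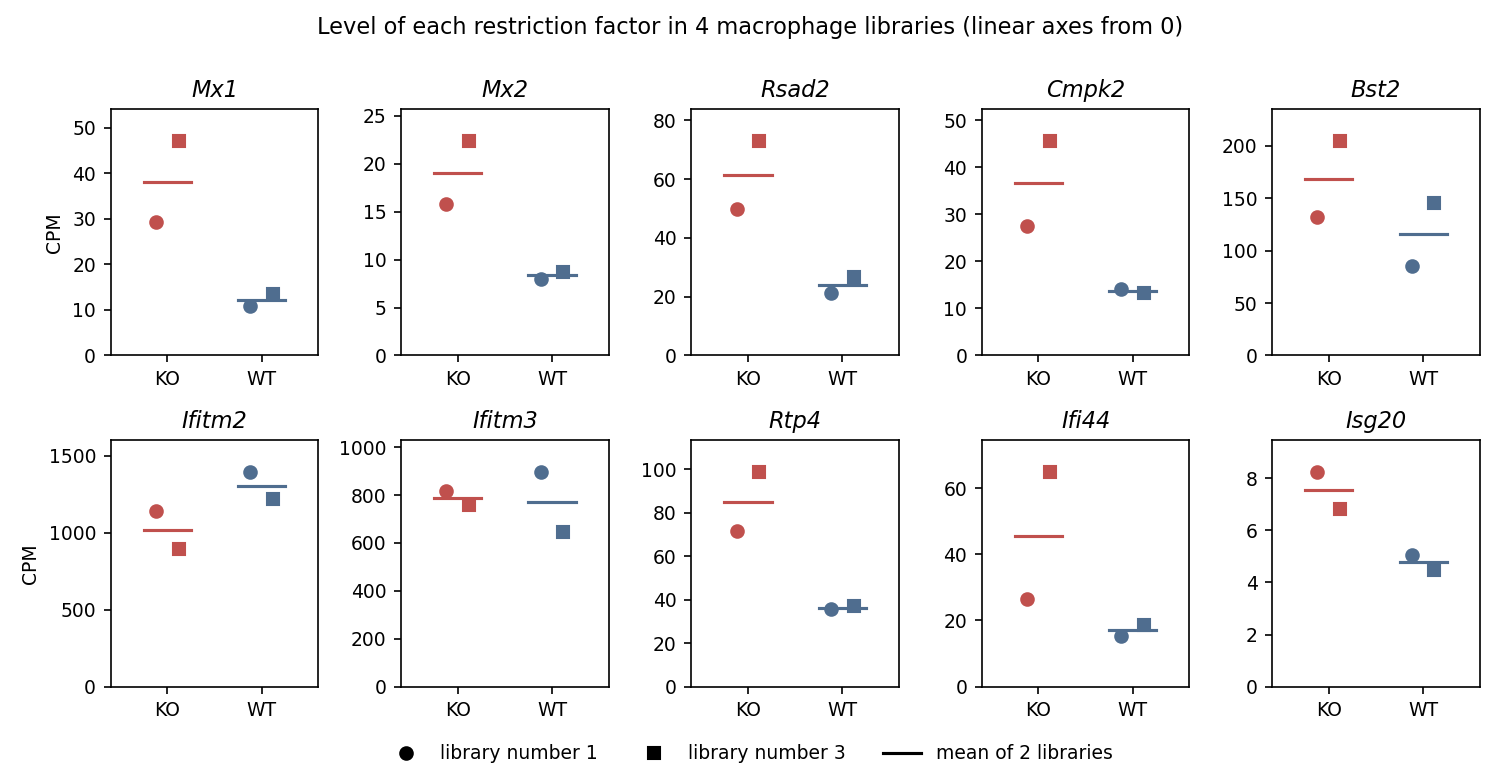
Level of each gene in CPM (y axis from 0, a scale of its own for each gene) in the knockout (left) and control (right) libraries; circles are number 1, squares number 3 and bars the mean of 2 libraries. Both knockouts lie above both controls for 7 genes, the groups overlap for Bst2 and Ifitm3, and Ifitm2 lies lower in the knockouts.

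Per length of transcript, the 2 membrane proteins of the Ifitm family dominated. In FPKM, the authors' value scaled for length and depth, Ifitm2 and Ifitm3 made up 93.1% and 88.2% of the summed level of the 10 genes in KO1 and KO3, against 96.4% and 93.4% in WT1 and WT3. In the controls the order of mean FPKM was Ifitm2 (1796 ± 140, SD, n = 2), Ifitm3 (1022 ± 217), Bst2 (116 ± 44.6), Rtp4 (15.4 ± 0.703) and Rsad2 (5.01 ± 0.874). Below them Cmpk2, Mx1, Ifi44, Isg20 and Mx2 lay between 2.08 and 2.96 FPKM, and the 2 controls of each overlapped those of its neighbour in the order. In the knockouts the summed level of the other 8 genes was 197 and 297 FPKM in KO1 and KO3, against 115 and 182 FPKM in WT1 and WT3. Most of that sum was Bst2, at 132 and 202 FPKM in KO1 and KO3, against 84.0 and 147 FPKM in WT1 and WT3. Neither of the abundant pair had both knockouts above both controls.

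Mx1 and Mx2 encode dynamin-like proteins that assemble around viral ribonucleoproteins; in mice Mx1 acts in the nucleus against influenza virus and Mx2 in the cytoplasm. C57BL/6, like most laboratory strains, carries alleles of both that make no functional protein, and the authors' table lists a polymorphic pseudogene among the transcript types of each. Gene coordinates are those of the deposited table, which mostly equal GRCm38 annotation. The genes lie 72.4 kb apart on opposite strands of chromosome 16 (Mx1, ENSMUSG00000000386, chr16:97447035-97462907, minus strand, and Mx2, ENSMUSG00000023341, chr16:97535308-97560900, plus strand). Mx1 stood at 29.3 CPM in KO1 and 47.0 in KO3, against 10.9 in WT1 and 13.5 in WT3. The lower knockout was more than 2 times the higher control, and the log2 fold change of 1.65 ± 0.31 (SE; edgeR unadjusted p = 0.00399) was the highest of the 10. DESeq2 called it at an adjusted p of 0.00245. Mx2 stood at 15.8 CPM in KO1 and 22.3 in KO3, against 8.01 in WT1 and 8.74 in WT3. Its groups did not overlap either, with a log2 fold change of 1.19 ± 0.27 (SE; edgeR unadjusted p = 0.00849; adjusted p = 0.0912 by DESeq2). The FPKM ratio of Mx1 to Mx2 was 1.78 and 2.01 in KO1 and KO3, against 1.30 and 1.47 in WT1 and WT3. The transcripts of the pair share few stretches of 75 bases, 1.71% of those of Mx1 and 2.01% of those of Mx2.

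Rsad2 and Cmpk2 are neighbours that act on the same kind of substrate. Rsad2 (ENSMUSG00000020641, chr12:26442746-26456452, minus strand) encodes viperin, which turns CTP into a chain terminator of viral RNA polymerases, and Cmpk2 (ENSMUSG00000020638, chr12:26469204-26479837, plus strand) encodes a mitochondrial kinase of pyrimidine nucleotides. They lie 12.8 kb apart on opposite strands, transcribed away from each other. Rsad2 stood at 49.8 CPM in KO1 and 72.9 in KO3, against 21.4 in WT1 and 26.8 in WT3. Cmpk2 stood at 27.6 CPM in KO1 and 45.5 in KO3, against 14.2 in WT1 and 13.2 in WT3. In both genes KO3 was the highest library and KO1 lay above both controls. The log2 fold change of Rsad2 was 1.35 ± 0.26 (SE; edgeR unadjusted p = 0.00477; adjusted p = 0.0139 by DESeq2). That of Cmpk2 was 1.42 ± 0.30 (SE; edgeR unadjusted p = 0.00667; adjusted p = 0.0255 by DESeq2). Rsad2 differed by 1.22 within number 1 and 1.44 within number 3, while Cmpk2 differed by 0.96 and 1.78. The FPKM ratio of Rsad2 to Cmpk2 was 1.74 and 1.54 in KO1 and KO3, and 1.45 and 1.95 in WT1 and WT3, so the ratio overlapped between genotypes.

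Isg20 (ENSMUSG00000039236, chr7:78913424-78920307, plus strand), an exonuclease that degrades single-stranded RNA, had the lowest counts of the 10, from 275 to 541 a library. It stood at 8.22 CPM in KO1 and 6.83 in KO3, against 5.06 in WT1 and 4.47 in WT3. Both knockouts lay above both controls, with a log2 fold change of 0.66 ± 0.29 (SE; edgeR unadjusted p = 0.0763; adjusted p = 1.00 by DESeq2). Unlike the 6 genes with larger differences, Isg20 was not highest in KO3, and it differed by 0.70 within number 1 and 0.61 within number 3.

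Rtp4 and Ifi44 act in less settled ways. Rtp4 (ENSMUSG00000033355, chr16:23520291-23614222, plus strand) was first described as a chaperone that carries receptors to the cell surface. It stood at 71.6 CPM in KO1 and 98.6 in KO3, against 35.7 in WT1 and 37.2 in WT3. The controls lay close together, and its unadjusted p was the smallest of the 10 (log2 fold change 1.23 ± 0.21, SE; edgeR unadjusted p = 0.00291; adjusted p = 0.00853 by DESeq2). Rtp4 overlaps Masp1 on the other strand and Gm45338 on its own; Gm45338 shares 10.5% of the 75-base stretches of Rtp4 but had at most 7 counts a library. Ifi44 (ENSMUSG00000028037, chr3:151730922-151749960, minus strand), an interferon-induced cytosolic protein, stood at 26.4 CPM in KO1 and 64.7 in KO3, against 15.4 in WT1 and 18.8 in WT3. KO3 stood apart, at more than 2 times KO1, and the log2 fold change was 1.41 ± 0.47 (SE; edgeR unadjusted p = 0.0335; adjusted p = 0.36 by DESeq2). Without KO3 it was 0.63. The difference was 0.77 within number 1 and 1.78 within number 3.

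Bst2 (ENSMUSG00000046718, chr8:71534255-71537456, minus strand) encodes tetherin, a surface protein that holds budding virions to the cell. It stood at 132 CPM in KO1 and 204 in KO3, against 85.1 in WT1 and 146 in WT3. WT3 lay above KO1, so the groups overlapped, and the log2 fold change was 0.54 ± 0.36 (SE; edgeR unadjusted p = 0.195). Within the numbers the difference was 0.63 and 0.49, in the same direction. Bst2 was the 1 gene of the 10 with both number 3 libraries above both number 1 libraries, against 26.2% of all genes. In the edgeR fit with number and genotype, it stood 0.70 ± 0.12 higher (log2, SE) in number 3 than in number 1 (adjusted p = 0.108). The genotype difference in that same fit was 0.56 ± 0.12 (SE; edgeR unadjusted p = 0.00864, adjusted p = 0.852). Without the number term, leaving out KO3 gave a genotype difference of 0.19, leaving out WT1 0.22, leaving out KO1 0.84 and leaving out WT3 0.99. Bst2 is also a marker of plasmacytoid dendritic cells in mice. Of 5 other markers of those cells, Ly6d and Klk1 had a count of 0 in all 4 libraries and Siglech at most 0.0505 CPM. The 5 summed to 3.26 and 1.87 CPM in KO1 and KO3, against 4.64 and 2.89 CPM in WT1 and WT3. Nearly all of that sum was Ccr9 and Cox6a2, and the groups overlapped in both. Ccr9 stood at 0.928 and 1.415 CPM in KO1 and KO3, against 1.33 and 1.13 CPM in WT1 and WT3. Cox6a2 stood at 2.34 and 0.404 CPM in KO1 and KO3, against 3.31 and 1.76 CPM in WT1 and WT3.

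Ifitm2 (ENSMUSG00000060591, chr7:140954837-140955987, minus strand) and Ifitm3 (ENSMUSG00000025492, chr7:141009586-141010770, minus strand) encode small membrane proteins that hinder fusion of viral envelopes with endosomes. They lie 53.6 kb apart on the minus strand of chromosome 7. Ifitm2 stood at 1145 CPM in KO1 and 893 in KO3, against 1393 in WT1 and 1218 in WT3. Both knockouts lay below both controls, the opposite of 7 of the 10 genes, with a log2 fold change of -0.36 ± 0.22 (SE; edgeR unadjusted p = 0.168). Without KO3 it was -0.19. The difference was -0.28 within number 1 and -0.45 within number 3. Ifitm3 stood at 818 CPM in KO1 and 761 in KO3, against 894 in WT1 and 645 in WT3. Both knockouts lay between the controls, and both number 3 libraries lay below both number 1 libraries, as for 25.2% of all genes. The log2 fold change was 0.04 ± 0.23 (SE; edgeR unadjusted p = 0.883), with -0.13 within number 1 and 0.24 within number 3. The FPKM ratio of Ifitm2 to Ifitm3 was 1.45 and 1.22 in KO1 and KO3, against 1.61 and 1.95 in WT1 and WT3, so it was lower in both knockouts. Counts of Ifitm2 are uncertain: 42.0% of the 75-base stretches of its annotated transcript also occur in 5 predicted genes, the highest of which, Gm8865, stood at 3.55 and 2.82 CPM in KO1 and KO3, against 1.95 and 1.52 CPM in WT1 and WT3. For Ifitm3 the share was 0.662%.

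**Figure D3:**
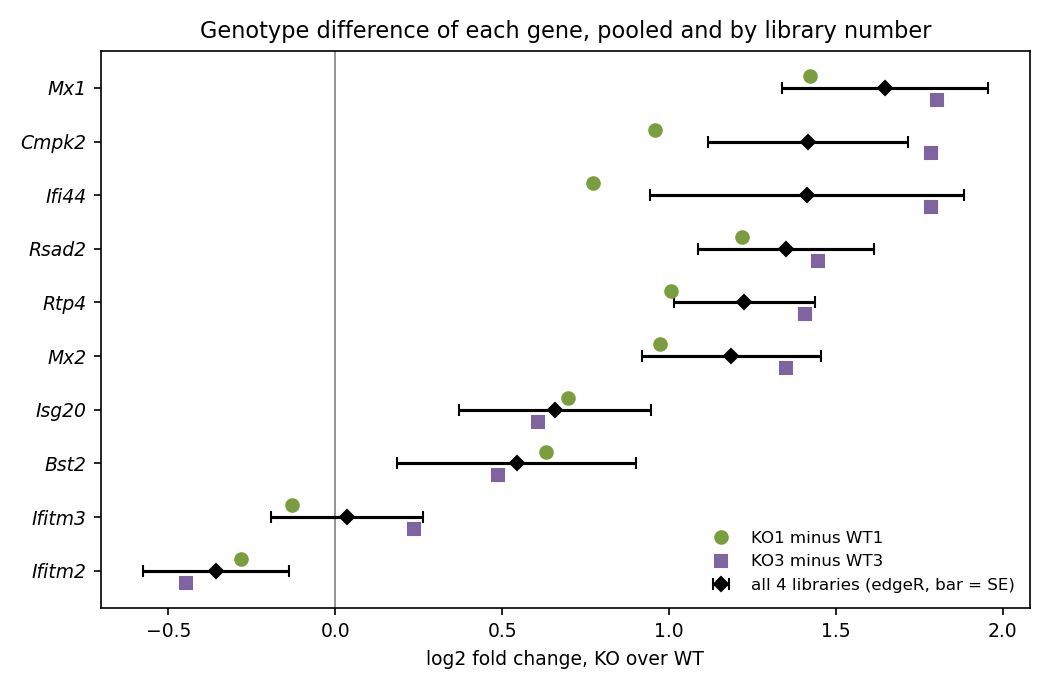
Log2 fold change of the knockouts over the controls for each gene (x axis), from all 4 libraries (diamonds, bars are the SE) and within number 1 (circles) and number 3 (squares). Mx1 leads at 1.65, Ifitm3 lies on both sides of 0 and Ifitm2 lies at -0.36.

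Library number was compared as well, in the edgeR fit that also held genotype. The genotype difference was larger within number 3 for 6 of the 8 genes that stood higher in both numbers. Number 3 against number 1 gave log2 differences of 0.79 ± 0.28 for Ifi44, 0.49 ± 0.17 for Mx1 and 0.44 ± 0.14 for Rsad2 (SE; edgeR unadjusted p of 0.0464, 0.0397 and 0.0311). At an adjusted p of 0.05, edgeR called 0 of the 10 between numbers, against 0.707% of all genes tested. At an unadjusted p under 0.05 it gave 4 of the 10 (these 3 and Bst2), against 17.6% of all genes tested. Whether the genotype difference itself differs between numbers could not be tested with 1 library in each cell of the design.

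The pathway that switches these genes on was read from a list of 14 genes of interferon signalling, of which 13 were tested. None passed an adjusted p of 0.05 in either direction by edgeR, or by DESeq2 without a number block. With library number as a block, DESeq2 called 4 higher and 0 lower, against 106 and 66 of all 17260 genes tested. At an unadjusted edgeR p under 0.05, 3 were higher, against 1.30% of all genes tested, and 0 lower, against 0.962%. Both knockouts lay above both controls for 5, against 13.1% of all genes, and below them for 2, against 13.4%. A log2 fold change above 0 was found in 9 and below 0 in 4, and the median was 0.13. Usp18, an interferon-induced protease that removes ISG15 and damps the receptor, stood at 47.7 and 59.4 CPM in KO1 and KO3, against 29.2 and 24.6 CPM in WT1 and WT3 (log2 fold change 0.99 ± 0.20, SE, by edgeR). Stat2, a transcription factor of the type I interferon response, stood at 259 and 284 CPM in KO1 and KO3, against 180.5 and 114 CPM in WT1 and WT3. For both genes the groups did not overlap. Irf9, a DNA-binding factor of the same response, stood at 55.4 and 68.9 CPM in KO1 and KO3, against 66.2 and 72.7 CPM in WT1 and WT3, and its groups overlapped. Those of Irf7 did not, at 90.9 and 154 CPM in KO1 and KO3, against 57.2 and 88.3 CPM in WT1 and WT3. Its log2 fold change was 0.75 ± 0.36 (SE, by edgeR). Among the lowest of the list, Socs1, an inhibitor of JAK signalling, stood at 0.208 and 1.18 CPM in KO1 and KO3, against 6.26 and 1.39 CPM in WT1 and WT3, and Irf8 at 78.5 and 79.3 CPM, against 157 and 82.1 CPM. In both, WT1 stood far above the other 3 libraries, and the log2 fold change of -2.46 for Socs1 was -0.99 without WT1 and -4.19 without KO3, and that of -0.60 for Irf8 was -0.05 without WT1 and -0.99 without WT3. Ifnb1, the gene of interferon beta, had a count of 0 in all 4 libraries, where 3 counts would give 0.0379 to 0.0544 CPM; this floor covers counting error only.

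Other antiviral effectors were taken as a list of 24 genes, all of them tested. None passed an adjusted p of 0.05 by edgeR, or by DESeq2 without a number block. DESeq2 with that block called 2 higher and 0 lower, against 106 and 66 of all 17260 genes tested. At an unadjusted edgeR p under 0.05, 6 were higher, against 1.30% of all genes tested, and 1 lower, against 0.962%. A log2 fold change above 0 was found in 19 and below 0 in 5, and the median was 0.34. Of all 17260 genes tested, 8603 lay above 0 and 8657 below. Both knockouts lay above both controls for 12, against 13.1% of all genes, and below them for 2, against 13.4%. Isg15, a ubiquitin-like modifier, was the highest, at 49.2 and 120.0 CPM in KO1 and KO3, against 24.5 and 29.5 CPM in WT1 and WT3. The log2 difference was 1.65 ± 0.46 (SE; edgeR unadjusted p = 0.019), and 0.87 without KO3, which is also the library with the highest Ifi44. Next came Ddx60, a helicase linked to RNA sensing, at 67.1 and 90.4 CPM in KO1 and KO3, against 43.5 and 40.4 CPM in WT1 and WT3, and Zbp1, a sensor of Z-form nucleic acids, at 79.2 and 111 CPM, against 57.4 and 50.1 CPM. Ifi27, a mitochondrial protein, stood lower, at 25.7 and 33.3 CPM in KO1 and KO3, against 41.1 and 48.0 CPM in WT1 and WT3 (log2 fold change -0.59 ± 0.21, SE; edgeR unadjusted p = 0.0422). Shfl, which blocks ribosomal frameshifting of viruses, stood at 8.99 and 7.83 CPM in KO1 and KO3, against 13.4 and 10.7 CPM in WT1 and WT3 (log2 fold change -0.52, and -0.34 without WT1). As with Ifitm2, both knockouts lay below both controls for these last genes.

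Paralogues and enzymes of the same kind as 1 of the 10 had a median near 0. Ifitm1 and Ifitm6 stand both here and among the effectors. Of 10 such genes 7 were tested, and 0 passed by edgeR or DESeq2 (0 also at an unadjusted edgeR p under 0.05). The groups overlapped in all 7, while 13.1% of all genes had both knockouts above both controls and 13.4% had both below. The median log2 fold change was -0.01. Cmpk1, the cytosolic counterpart of Cmpk2, stood at 113 and 118 CPM in KO1 and KO3, against 110.4 and 123 CPM in WT1 and WT3 (log2 fold change -0.01 ± 0.15, SE, by edgeR). Isg20l2, a nucleolar exonuclease related to Isg20, stood at 32.4 and 33.3 CPM in KO1 and KO3, against 32.3 and 33.2 CPM in WT1 and WT3. Ifitm1 stood at 57.2 and 13.5 CPM in KO1 and KO3, against 68.2 and 24.2 CPM in WT1 and WT3, with both number 1 libraries above both number 3 libraries.

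**Figure D4:**
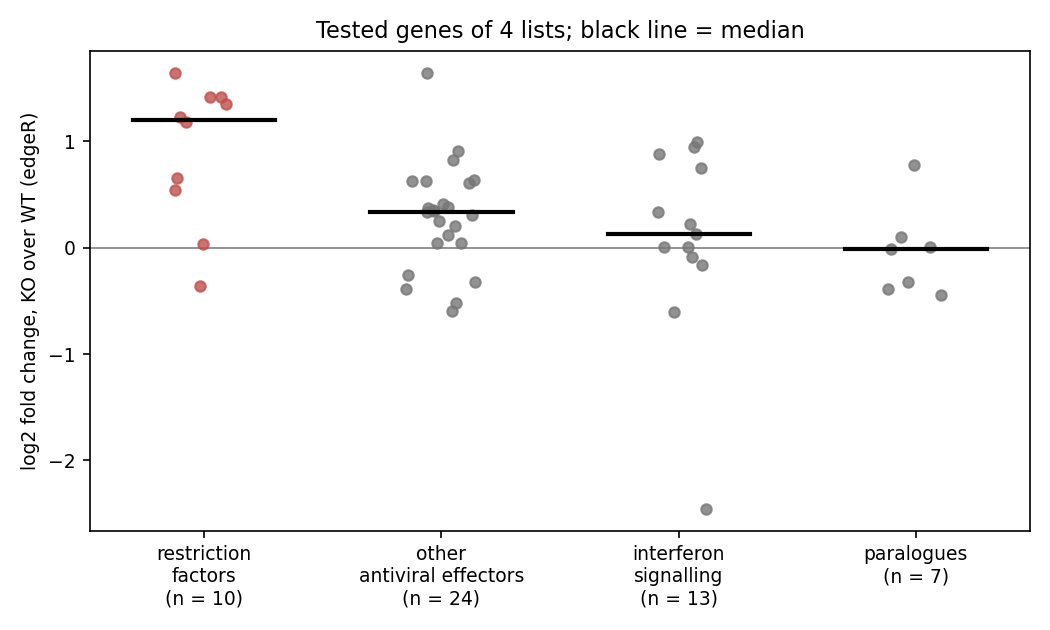
Log2 fold change of the knockouts over the controls (edgeR, y axis) for each tested gene of the 10 restriction factors, 24 other antiviral effectors, 13 interferon signalling genes and 7 paralogues; lines are medians. The medians are 1.21, 0.34, 0.13 and -0.01, and the lowest point is Socs1.

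The genes most alike in pattern were those with the smallest distance, over the 4 libraries, between centred log2 CPM and the mean centred profile of the 10. The 5 closest were D11Wsu47e (distance 0.0387), Psma8 (0.102), Gm38192 (0.118), Gm50237 (0.128) and Tap1 (0.135). Tap1, a subunit of the peptide transporter of antigen presentation, stood at 65.6 and 84.6 CPM in KO1 and KO3, against 36.3 and 37.5 CPM in WT1 and WT3. D11Wsu47e stood at 8.51 and 11.4 CPM in KO1 and KO3, against 5.03 and 5.33 CPM in WT1 and WT3, while Psma8, Gm38192 and Gm50237 stayed under 2 CPM in every library. The 10 themselves lay 0.285 (Mx2) to 1.38 (Ifitm2) from their mean, and with 4 libraries many genes can match a profile closely.

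N6-methyladenosine is placed within short motifs of which GGACT is a common form. In the longest coding transcript of each gene in GENCODE M21 (GRCm38), 5 of the 10 (Mx1, Mx2, Ifitm2, Ifitm3 and Rtp4) held no GGACT, against 7.50% of 13150 tested genes with such a transcript. Their transcripts ran from 655 bases (Ifitm2) to 3385 bases (Mx1). The other 5 held 1.03 (Ifi44) to 2.76 (Isg20) per kilobase. The median of all 10 was 0.515 per kilobase, beside a median of 1.05 and a lower quartile of 0.643 over all these genes. Genes with and without the motif were found among those with the largest differences (Mx1 with none, Cmpk2 with 7), and no methylation was measured here.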

How the data were processed

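Per the labels' protocols, poly(A) RNA was made into dUTP libraries and read in pairs of 150 bases. Cutadapt 1.9, HISAT2 2.0.4 and StringTie 1.3.4d, with edgeR and DESeq2, are named in the submitters' processing notes. The authors deposited an estimated count for every gene and library, and the FPKM beside it. The genome build and whether counting used the strand are not given in the sources used here. GENCODE M21 (GRCm38) gives the same start and end for 94.2% of the 55141 identifiers it shares with the table, and for 9 of the 10 genes (not Isg20), and gene coordinates are those of the deposited table. The deposited estimated counts were whole numbers, so no rounding was needed, but 38.7% to 39.5% of counts from 1 to 24 were multiples of 4, so the fragments behind a count are not known. The deposited FPKM of a gene with a count of 0 is 0.0001. Another 4 value columns, from 2 libraries that match no sample, were not used.

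Counts were tested with edgeR 4.0.16 (R 4.3.3; filterByExpr, TMM, quasi-likelihood, two-sided, Benjamini-Hochberg adjustment over all genes tested, threshold 0.05). CPM uses TMM-scaled library sizes; differences within a number use log2 CPM with a prior count of 2; SE is the log2 fold change divided by the root of F. DESeq2 1.42.0, limma 3.58.1 on log2(FPKM + 1) and other scalings and filters were alternatives, and the tests were tried on simulated data. An exact permutation test of 2 against 2 cannot go below p = 0.333 (two-sided). No label ties a library to an animal, so p-values measure the spread between these libraries. The genes and lists were chosen with earlier results of these data known. Genes outside the 10 were named from 3 lists (interferon signalling, other antiviral effectors, paralogues), as the 3 highest and 2 lowest by log2 fold change or where a sentence turns on them, and by the likeness rule; 1 gene of these lists is not reported here by name. Promoters are from RefSeq (GRCm38.p6) and transcripts from GENCODE M21.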

Additional observations from a re-analysis of the deposited data

Results flagged for a closer look

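Ifitm3 differed between genotypes in opposite directions in the 2 library numbers, by 0.24 (log2, KO3 minus WT3) and -0.13 (KO1 minus WT1). Cmpk1 also went both ways, by -0.057 (KO3 minus WT3) and 0.037 (KO1 minus WT1). Ifitm6, a paralogue of the Ifitm genes, differed by 0.38 in number 3 and -0.44 in number 1. With 1 library of each genotype in a number, none of these differences between numbers was tested.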

How the results depend on the processing

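The direction of the difference held for 9 of the 10 restriction factors under every alternative run, with Ifitm3 the exception. Their median log2 fold change ranged from 0.85 (without KO3) to 1.44 (without KO1) when 1 library was left out, where a lone library is taken to vary as the other genotype does and number mixes with genotype. The count with knockouts above controls was 7 to 8 in the same settings, where it cannot fall because fewer libraries are compared. It was 7 under other scalings and on FPKM. That count has no value of its own under the other tests and filters. By edgeR and limma, 0 genes passed between genotypes in all settings; DESeq2 called 74, and with a replicate block 175. With the replicate block edgeR called 0 genes, with 929 at an unadjusted p under 0.05, against 391 without. The numbers share no stated origin; the difference between numbers in knockouts and in controls correlated at 0.42 over all genes, which 2 pairs cannot settle. Between numbers edgeR called 122 genes, DESeq2 1233, upper-quartile scaling 226 and no low-count filter 0 (2930 at an unadjusted p under 0.05). With 1 library left out, log2 fold changes that turned sign ranged from -0.18 to 0.30 for Ifitm3, from -0.078 to 0.070 for Cmpk1, from -0.015 to 0.039 for Isg20l2, from -1.75 to 0.55 for Ifitm1, from -0.33 to 0.0042 for Irf9 and from -1.77 to 1.85 for Ifitm6. Isg20l2 also stood at -0.012 with upper-quartile scaling, -0.0025 with counts divided by 4, and -0.0046 and -0.0050 by limma on FPKM with pseudocounts of 1 and 0.1. The cause of these shifts was not tested. Another scaling moved the median of all genes by less than 0.1 (log2).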

Other observations

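Ifitm1 and Ifitm6 differed more between library numbers than between genotypes. Ifitm6 stood at 91.4 and 20.2 CPM in KO1 and KO3, against 124 and 15.5 CPM in WT1 and WT3, so both number 1 libraries lay above both number 3 libraries. Its log2 difference, number 3 over number 1, was -2.59 ± 0.25 (SE; edgeR adjusted p = 0.04998), and that of Ifitm1 was -1.79 ± 0.20 (adjusted p = 0.0599). Ifitm2 and Ifitm3 also had their higher level in number 1 within each genotype, with smaller differences.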
